A study of Mus musculus with 9 samples.

Results

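The Hedgehog pathway genes Gli1, Gli2, Gli3, Ptch1, Smo, Sufu and Hhip were followed in cultured mouse embryonic stem cells. They were chosen by gene symbol, with the log2 fold changes of these same libraries already known, and are 7 of the 33924 genes of the count table. All 7 had enough reads to be tested, as had 14772 genes in all. RNA was sequenced from 3 libraries labelled MLL4 knockdown, 3 UTX knockout libraries and 3 wild type libraries, which makes 9 libraries. All came from male cells grown on gelatin in serum medium with LIF, a cytokine that keeps stem cells undifferentiated, and no group was treated further. UTX, encoded by Kdm6a, removes methyl groups from histone H3 lysine 27, and MLL4, encoded by Kmt2d, methylates histone H3 lysine 4 at enhancers. The titles give JM8A for wild type, JM8A with a further number for the labelled MLL4 knockdown, and A6 for the UTX knockout. The labels describe neither the deleted allele nor the knockdown agent. Perturbation and line or clone therefore cannot be told apart. Nothing in the labels tells whether libraries of 1 group were grown as separate cultures, so the errors cover the spread of these libraries, which may be technical.

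Hedgehog ligands bind the receptor Patched, which otherwise holds the membrane protein Smoothened inactive. Active Smoothened gathers in the primary cilium and frees the GLI zinc finger factors from Sufu, so that they reach the nucleus. Gli2 is the main activator, Gli3 is cut mostly to a repressor, and Gli1 is an activator that is itself a target. Ptch1 and Hhip, which both restrain the ligand, are also textbook targets and close a negative feedback loop. All these roles are background from other tissues, and transcript counts do not report GLI protein or its processing.

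Across the whole table, library totals lay between 18570746 and 23874816 counts, so the groups were close in depth. Kdm6a had 12.8 to 19.4 CPM in UTX knockout libraries, against 57.1 to 90.6 CPM in wild type libraries (log2 fold change −2.27, SE 0.20, edgeR quasi-likelihood test with Benjamini-Hochberg adjusted p = 0.000155, lower in 3 of 3 libraries). CPM scales the counts to the library total after TMM scaling, so that libraries can be compared. Kmt2d, listed in the table under its older symbol Mll2, averaged 72.1 ± 1.21 CPM in the labelled MLL4 knockdown and 82.9 ± 37.9 CPM in wild type (SD, n = 3 each). That difference did not pass (log2 −0.20, edgeR adjusted p = 0.624), so the libraries are named by their label throughout. Against the UTX knockout its difference was −0.64 (edgeR adjusted p = 0.0987, and 0.0376 with the replicate number as a block). Wild type replicate 2 stood apart: the 1322 longest genes, those with at least 9704 exon bases, had a median log2 deviation of −0.40 from their mean over the 9 libraries in it, against 0.0243 to 0.112 in the other 8 libraries. Kmt2d is among these long genes, with 19931 exon bases, and had 86.2, 43.5 and 119 CPM in wild type replicates 1, 2 and 3. Its labelled MLL4 knockdown difference from wild type was −0.51 without wild type replicate 2 and 0.16 without wild type replicate 3. The part of transcript length in it was not tested. Pluripotency markers summed to 6511 to 7178 CPM in the labelled MLL4 knockdown, 6489 to 7078 CPM in the UTX knockout and 5178 to 6217 CPM in wild type, over 10 of 10 genes. Against wild type 4 rose and 2 fell in the labelled MLL4 knockdown, or 60% beside 26.6% of all tested genes. In the UTX knockout 1 rose and 1 fell, or 20% beside 15.5%. With the replicate number as a block Esrrb and Tdgf1 also rose there (edgeR adjusted p = 0.0201 and 0.0450). Klf4 averaged 582 ± 60.7 CPM in the labelled MLL4 knockdown and 211 ± 50.5 CPM in wild type, whereas Dppa5a averaged 469 ± 82.8 and 988 ± 317 CPM. Fibroblast markers, 12 genes with Lum at 0 in all libraries, summed to 25.6 to 26.7 CPM, 23.6 to 24.7 CPM and 28.8 to 33.9 CPM in the labelled MLL4 knockdown, the UTX knockout and wild type. Of 7 tested, 4 fell and 1 (Pdgfra) rose in the labelled MLL4 knockdown against wild type, or 71.4% beside 26.6% of all tested genes. The block added a rise of Fbn1 there (log2 0.82, edgeR adjusted p = 0.0232). In the UTX knockout 1 fibroblast marker rose and 2 fell, or 42.9% beside 15.5%. Mesendoderm markers, 10 genes with Cer1 at 0 in all libraries, summed to 15.9 to 22.9 CPM, 15.0 to 19.4 CPM and 13.7 to 21.0 CPM. Primitive endoderm markers, 10 genes, summed to 270.0 to 323 CPM, 215 to 323 CPM and 262 to 343 CPM, most of it from Lamb1 and Col4a1, which many cell types express. The other 8 summed to 34.9 to 47.8 CPM in the labelled MLL4 knockdown, 16.8 to 21.0 CPM in the UTX knockout and 14.4 to 19.3 CPM in wild type. Of 9 tested primitive endoderm markers, 4 rose (Cubn, Dab2, Gata6 and Pdgfra) and 1 fell (Lamb1) in the labelled MLL4 knockdown against wild type, or 55.6% beside 26.6% of all tested genes. The block added a rise of Col4a1 there (log2 0.45, edgeR adjusted p = 0.0225). In the UTX knockout 2 primitive endoderm markers rose and 1 fell, or 33.3% beside 15.5%. Cubn averaged 12.1 ± 7.07 CPM in the labelled MLL4 knockdown and 1.77 ± 0.325 CPM in wild type, and Gata6 averaged 2.71 ± 0.123 CPM in the labelled MLL4 knockdown and 0.938 ± 0.0453 CPM in wild type. Cubn, Dab2, Gata6 and Pdgfra moved in the same direction as Gli2 and Smo did in the labelled MLL4 knockdown. The part of these 4 markers in those differences was not tested. In bulk RNA, more cells that express a gene and more RNA per cell cannot be told apart.

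The promoters of Gli2, Smo and Ptch1 are shown because Gli2 and Smo had the widest gaps between groups and Ptch1 is a textbook GLI target that had none. RefSeq gives the GRCm38.p6 windows, of which the 250 bases before the start are used. Of the 7 genes 6 matched, and Gli1 had no window. The Gli2 window is chr1:119053620-119053869 on the minus strand, the Smo window chr6:29735247-29735496 on the plus strand, and the Ptch1 window chr13:63565736-63565985 on the minus strand. Each is written 5′ to 3′ along the gene, and capitals mark CCACCC, the inner letters of the GLI binding motif, and GGGCGG, the GC box bound by Sp1 family factors, on either strand.
Gli2: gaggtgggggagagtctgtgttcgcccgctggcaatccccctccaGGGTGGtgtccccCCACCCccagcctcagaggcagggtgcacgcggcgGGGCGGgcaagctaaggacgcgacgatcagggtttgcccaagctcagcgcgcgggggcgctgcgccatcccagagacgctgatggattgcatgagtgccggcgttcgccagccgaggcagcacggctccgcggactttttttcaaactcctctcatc
Smo: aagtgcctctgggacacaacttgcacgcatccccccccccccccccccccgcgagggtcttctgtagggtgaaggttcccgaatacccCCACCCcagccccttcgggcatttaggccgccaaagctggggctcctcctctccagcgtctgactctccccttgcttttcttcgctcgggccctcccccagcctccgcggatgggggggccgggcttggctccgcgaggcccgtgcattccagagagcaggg
Ptch1: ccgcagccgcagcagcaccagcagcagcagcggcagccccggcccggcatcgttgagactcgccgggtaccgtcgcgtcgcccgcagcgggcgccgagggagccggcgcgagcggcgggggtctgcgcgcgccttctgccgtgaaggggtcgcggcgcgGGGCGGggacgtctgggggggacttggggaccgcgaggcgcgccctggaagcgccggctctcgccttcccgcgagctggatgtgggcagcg

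Gli2 held CCACCC at 2 places and GGGCGG at 1 place, Smo held CCACCC at 1 place, and Ptch1 held GGGCGG at 1 place. Of 32851 promoters of that length, 28.1% held CCACCC and 32.7% held GGGCGG, on either strand. The full GLI motif GACCACCCA was in none of the 6 windows, nor was it there with up to 1 mismatch; the full motif was in 0.225% of all windows, and 5.79% held it with up to 1 mismatch. TATAAA (12.4% of all windows) was found in none of the 6, and CCAAT (33.8%) was found in Sufu alone among the 6. GC content was 67.2% for Gli2, 68.4% for Smo and 78.4% for Ptch1, against a median of 52.4% over all windows. The Gli2 window held 22 CpG dinucleotides and that of Ptch1 held 41, against 15 in Smo. The windows of Gli3, Sufu and Hhip had GC contents of 72.8%, 54.0% and 76.0%. A match of letters describes the window and says nothing of binding.

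Gli2, the main activator, was the member that differed most. Its level was 207, 223 and 230.4 CPM in the labelled MLL4 knockdown, 68.9, 61.1 and 84.7 CPM in the UTX knockout, and 39.7, 28.1 and 47.9 CPM in wild type (replicates 1, 2 and 3). The 3 groups did not overlap: every labelled MLL4 knockdown library was above every UTX knockout library, and every UTX knockout library was above every wild type library. Gli2 was higher by 2.51 on the log2 scale (SE 0.19) in the labelled MLL4 knockdown than in wild type, a 5.71-fold difference. The UTX knockout was higher than wild type by 0.89 (SE 0.18), or 1.86-fold. Set directly against the UTX knockout, the labelled MLL4 knockdown was higher by 1.62 (SE 0.18), or 3.08-fold. The first 2 comparisons share their wild type libraries. Replicate 2 of each group was sequenced in lane 1, and replicates 1 and 3 in lane 2. Within lane 1 the log2 ratio of the single libraries was 2.99 for the labelled MLL4 knockdown against wild type and 1.12 for the UTX knockout against wild type. Within lane 2 these differences were 2.32 and 0.81.

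Gli1, the GLI factor that is itself induced by the pathway, had 52.4, 80.8 and 83.6 CPM in the labelled MLL4 knockdown, 57.5, 64.4 and 73.2 CPM in the UTX knockout, and 36.2, 42.2 and 54.4 CPM in wild type. The UTX knockout libraries all lay above wild type, whereas the lowest labelled MLL4 knockdown library lay just under the highest wild type library. Against wild type, the log2 difference was 0.71 (SE 0.20) in the labelled MLL4 knockdown and 0.55 (SE 0.20) in the UTX knockout. Between the labelled MLL4 knockdown and the UTX knockout it was 0.15 (SE 0.19), with a 95% interval of −0.27 to 0.58. Gli1 exons share 62 of 4995 bases with Arhgap9 and 265 with Gm47200, both on the opposite strand. The strand setting of the counts is not given in the sources used here. Gm47200 had no row in the count table, so its level could not be checked. Arhgap9 averaged 10.5 CPM in the labelled MLL4 knockdown and 12.4 CPM in wild type, and did not pass in any comparison.

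Gli3, mostly a repressor in other tissues, had 30.8, 27.2 and 26.1 CPM in the labelled MLL4 knockdown, 24.9, 23.4 and 21.5 CPM in the UTX knockout, and 27.7, 20.8 and 34.8 CPM in wild type. Wild type spanned both other groups. The log2 difference from wild type was 0.01 (SE 0.17, 95% interval −0.37 to 0.39) in the labelled MLL4 knockdown and −0.25 (SE 0.17, 95% interval −0.63 to 0.12) in the UTX knockout. These differences were 0.38 and 0.17 in lane 1, and −0.14 and −0.43 in lane 2. All 3 labelled MLL4 knockdown libraries lay above the UTX knockout libraries, by a log2 difference of 0.27 (SE 0.17).

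**Figure D1:**
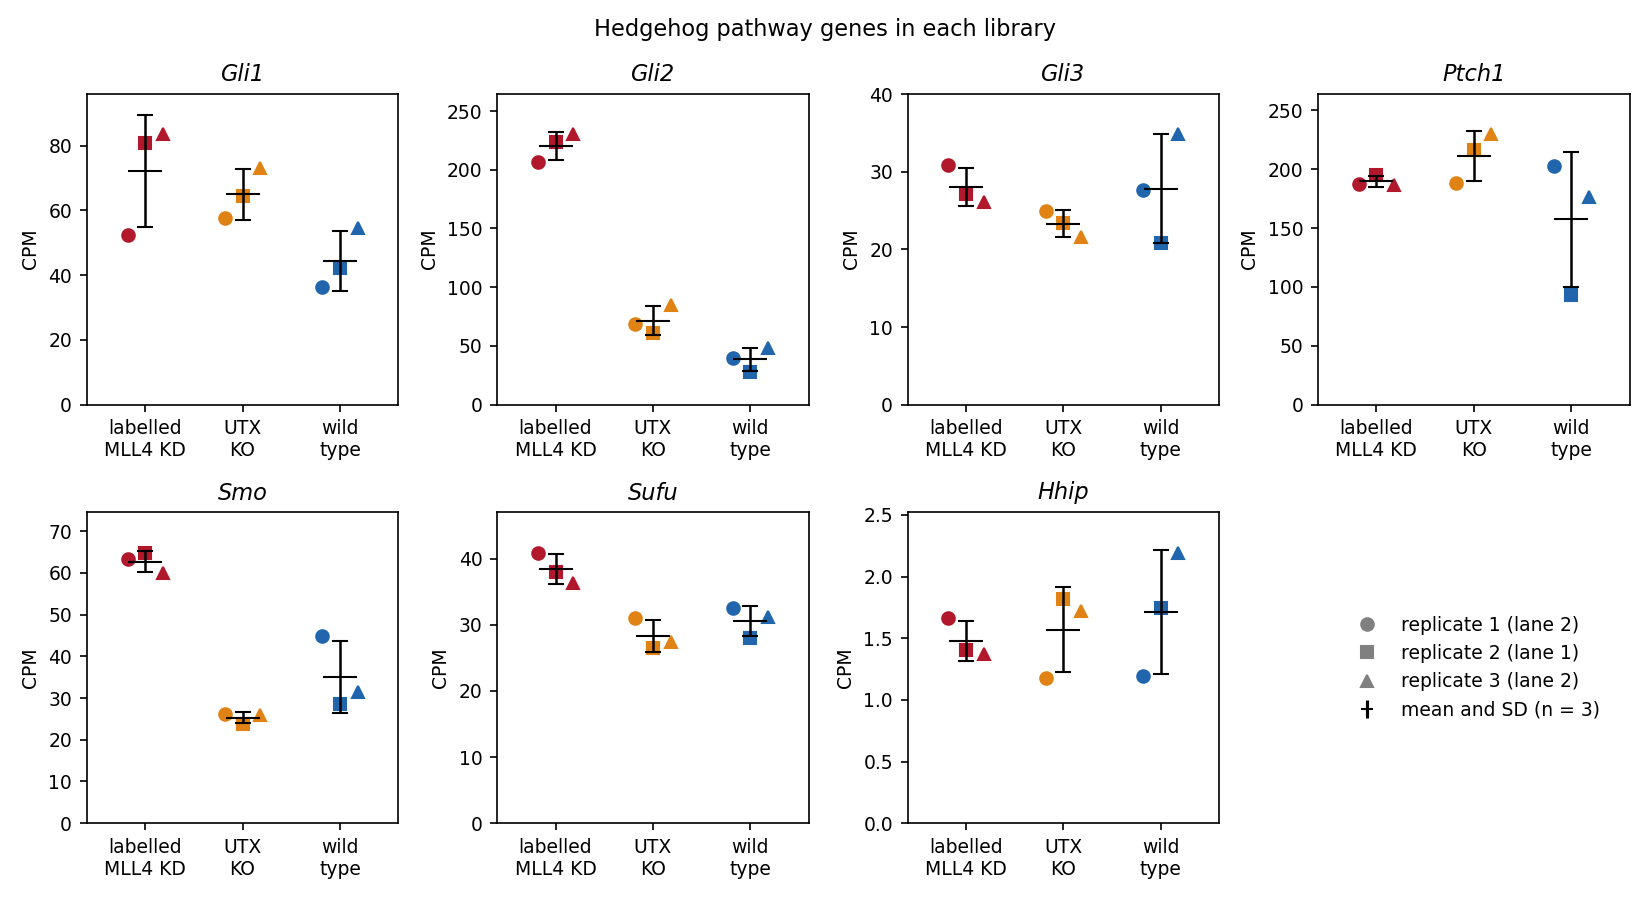
Level of each of the 7 genes in every library, in CPM on a linear axis from 0 that is scaled per gene, with the mean and SD of 3 libraries in black. Gli2 forms 3 separate groups, averaging 220.1, 71.6 and 38.6 CPM in the labelled MLL4 knockdown, the UTX knockout and wild type, while Gli3, Ptch1 and Hhip overlap wild type.

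Smo, the signal transducer downstream of Patched, had 63.3, 64.9 and 60.0 CPM in the labelled MLL4 knockdown, 26.2, 23.8 and 25.9 CPM in the UTX knockout, and 44.8, 28.7 and 31.5 CPM in wild type. The groups did not overlap, with the labelled MLL4 knockdown above wild type and the UTX knockout below it. The log2 difference from wild type was 0.84 (SE 0.16, 1.79-fold) in the labelled MLL4 knockdown and −0.47 (SE 0.16) in the UTX knockout. The direct difference between the labelled MLL4 knockdown and the UTX knockout was 1.31 (SE 0.16), or 2.48-fold. Without wild type replicate 1, the difference from wild type was 1.08 in the labelled MLL4 knockdown and −0.24 in the UTX knockout. The difference between the 2 perturbed groups, which does not use wild type, was 1.45 in lane 1 and 1.24 in lane 2.

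Sufu, the cytoplasmic inhibitor of GLI proteins, had 40.9, 38.0 and 36.4 CPM in the labelled MLL4 knockdown, 31.1, 26.5 and 27.4 CPM in the UTX knockout, and 32.5, 28.0 and 31.3 CPM in wild type. The labelled MLL4 knockdown was above both other groups, which overlapped each other. It was higher by 0.33 on the log2 scale (SE 0.12) than wild type and by 0.44 (SE 0.12) than the UTX knockout. The UTX knockout differed from wild type by −0.11 (SE 0.12, 95% interval −0.37 to 0.15). Over the 9 libraries the log2 levels of Sufu and Smo had a Pearson r of 0.941, the highest among the 21 pairs of members, which share library and depth.

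Ptch1, the receptor and feedback target, had 187, 195 and 187 CPM in the labelled MLL4 knockdown, 188, 216 and 230 CPM in the UTX knockout, and 202, 92.8 and 177 CPM in wild type. Wild type replicate 2 was the low library, and wild type replicate 1 lay above every library of the labelled MLL4 knockdown. Ptch1 has 14185 exon bases, which puts it among the long genes that were low in that library. The part of this in the result was not tested on its own. The log2 difference from wild type was 0.27 (SE 0.22, 95% interval −0.22 to 0.76) in the labelled MLL4 knockdown and 0.43 (SE 0.22, 95% interval −0.06 to 0.91) in the UTX knockout. Without wild type replicate 2 these values were 0.00 and 0.16. Within lane 1 they were 1.07 and 1.22, and within lane 2 they were −0.02 and 0.14. Across the alternative fits, removal of a transcript length trend among them, they lay between −0.02 and 0.51 and between 0.14 and 0.66. No difference of Ptch1 that is larger than the spread between replicates was seen.

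Hhip, a membrane protein that sequesters ligand, was the lowest member. It had 31 counts in each of the 3 labelled MLL4 knockdown libraries, which is 1.67, 1.40 and 1.37 CPM. It had 1.18, 1.82 and 1.72 CPM in the UTX knockout, and 1.19, 1.75 and 2.19 CPM in wild type. All 3 groups overlapped, and the widest log2 difference from wild type was −0.22 (SE 0.30, 95% interval −0.87 to 0.44) in the labelled MLL4 knockdown. A fall of up to 0.87 or a rise of up to 0.44 is therefore not excluded by these libraries.

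**Figure D2:**
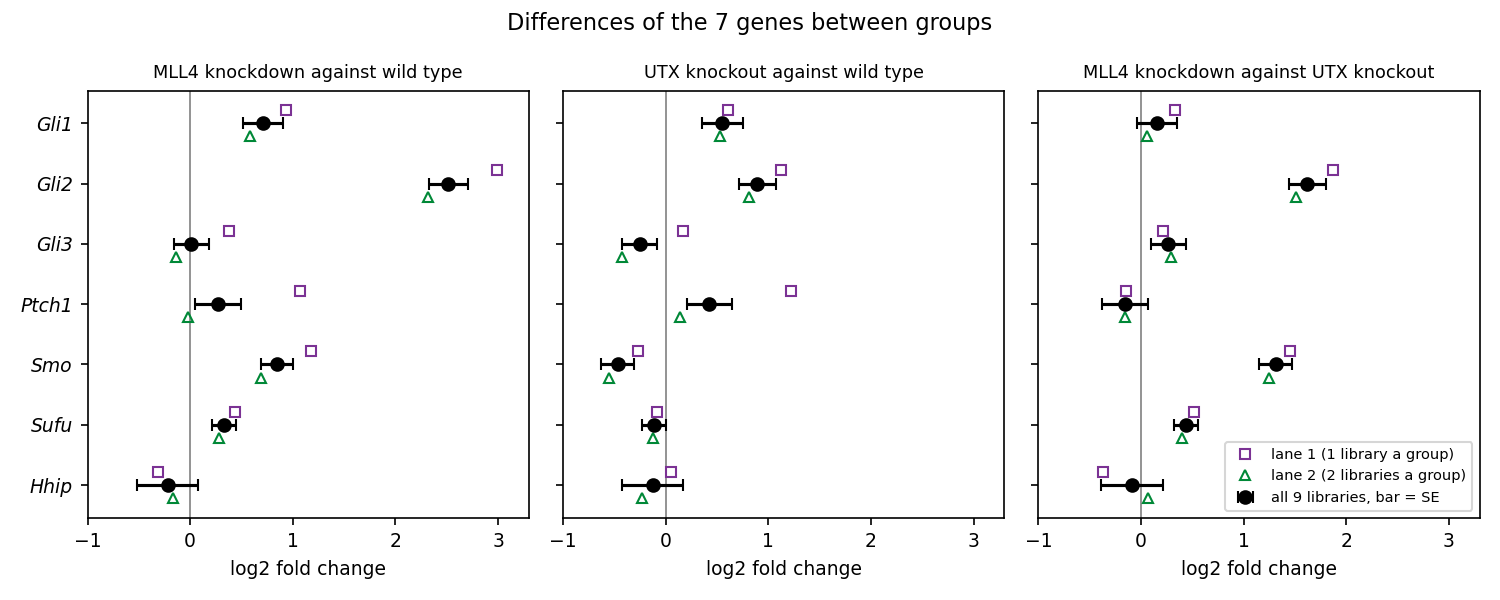
Log2 fold change of the 7 genes in 3 comparisons, with black points and SE bars from all 9 libraries, purple squares from the single libraries of lane 1 and green triangles from lane 2. Gli2 is right of 0 in every comparison and both lanes, Smo changes side between the left panel (0.84) and the middle panel (−0.47), and the lanes part for Ptch1 and Gli3 against wild type.

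In the fit across all tested genes, with an adjusted p under 0.05, 3 of the 7 genes were past the threshold in the labelled MLL4 knockdown against wild type (Gli1, Gli2 and Smo, all higher), where 26.6% of all tested genes were past it. Gli2 alone, 1 gene, was past it in the UTX knockout against wild type, beside 15.5% of all tested genes. In the labelled MLL4 knockdown against the UTX knockout these were 3 (Gli2, Smo and Sufu), beside 28.9% of all tested genes. The 3 libraries of each group did not overlap for 3, 3 and 4 of the 7 genes in these comparisons, beside 42.9%, 31.5% and 52.6% of all tested genes. The 7 genes were taken up with results of these comparisons known, so their counts support nothing and no p is given for them. Their median log2 difference was 0.33, −0.11 and 0.27, against −0.02, −0.01 and −0.02 over all tested genes.

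Levels of different genes were set side by side per kilobase of exon (RPKM, from GENCODE exon lengths on GRCm38, while the submitters' notes name mm9). In the labelled MLL4 knockdown Gli2 came first at 32.0 ± 1.75 RPKM, above Gli1 at 14.5 ± 3.45 and Ptch1 at 13.4 ± 0.323 RPKM, which overlapped (SD, n = 3). Smo at 11.2, Sufu at 5.0, Gli3 at 2.92 and Hhip at 0.163 RPKM followed, each separate from its neighbour in the order. Among UTX knockout libraries Ptch1 at 14.9, Gli1 at 13.0 and Gli2 at 10.4 RPKM led, each overlapping the next in the order. In wild type Ptch1 at 11.1, Gli1 at 8.87, Smo at 6.23, Gli2 at 5.62 and Sufu at 3.98 RPKM each overlapped the next in the order. Gli3 at 2.90 and Hhip at 0.189 RPKM lay below them. Gli2 was thus the highest member in the labelled MLL4 knockdown, whereas in wild type its libraries overlapped those of Smo and Sufu.

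Among the 3 GLI genes, Gli2 made up 65.0% ± 3.20 of the summed RPKM in the labelled MLL4 knockdown, 40.2% ± 2.99 in the UTX knockout and 32.2% ± 4.28 in wild type (SD, n = 3). Gli1 made up 29.0% ± 4.36, 50.3% ± 2.76 and 51.2% ± 5.98 in the same groups. Gli3 made up 5.99% ± 1.18, 9.51% ± 1.62 and 16.6% ± 1.70. The sum of the 3 was 49.4 ± 4.92 RPKM in the labelled MLL4 knockdown, 25.9 ± 2.91 RPKM in the UTX knockout and 17.4 ± 3.62 RPKM in wild type. The share of Gli3 was lowest in the labelled MLL4 knockdown although its own level hardly differed, since the share is taken of a sum that holds Gli2.

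**Figure D3:**
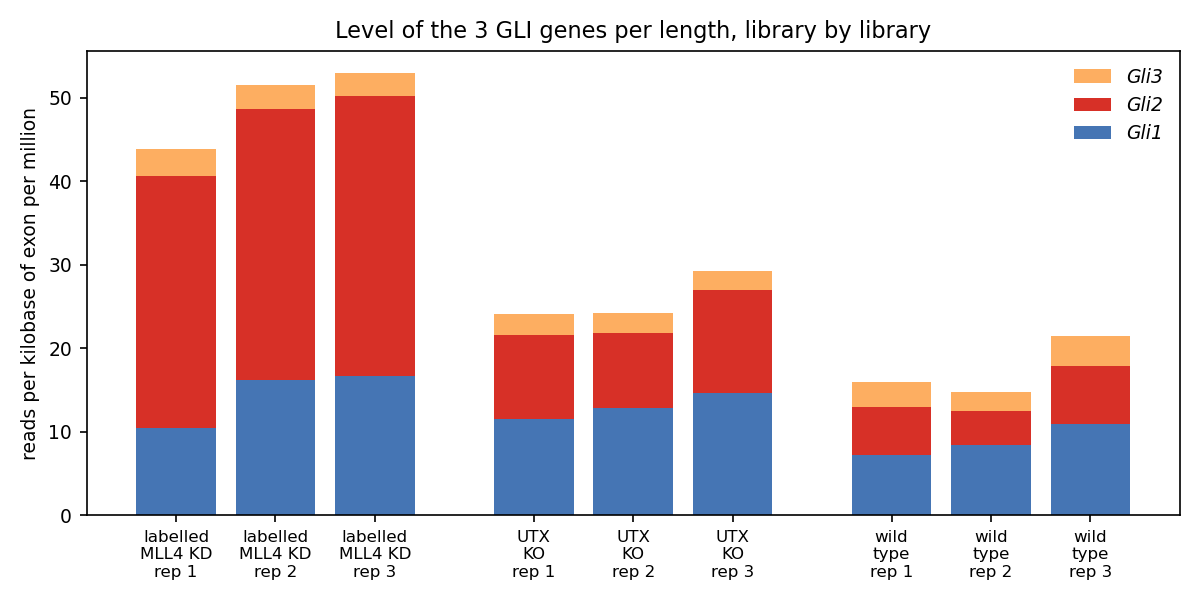
Stacked level of Gli1, Gli2 and Gli3 per kilobase of exon in each of the 9 libraries, on a linear axis from 0. The red Gli2 block takes 63.1% to 68.7% of the bar in the labelled MLL4 knockdown, 36.7% to 42.2% in the UTX knockout and 27.8% to 36.3% in wild type.

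The rest of the pathway was read from 6 lists of 121 genes in the table, of which 108 were tested. In the labelled MLL4 knockdown against wild type, 23 rose and 9 fell, which is 29.6% beside 26.6% of all tested genes. In the UTX knockout against wild type, 10 rose and 10 fell, or 18.5% beside 15.5%. In the labelled MLL4 knockdown against the UTX knockout, 22 rose and 14 fell, or 33.3% beside 28.9%. These shares were near those of all tested genes. The median log2 difference over the lists was 0.18, 0.15 and 0.02 in these comparisons. Each of the 32, 20 and 36 genes called had the same sign in lane 1 and in lane 2. The lanes are parts of the libraries that gave these calls, so this agreement lends the calls no support. In lane 2 alone 15, 1 and 19 genes passed. In the UTX knockout against wild type, 5 genes passed without UTX knockout replicate 2 and 6 without replicate 3.

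Ligand transcripts were scarce. Shh, the founding ligand, had 2, 1 and 2 counts in the labelled MLL4 knockdown, 3, 3 and 4 counts in the UTX knockout, and 1, 0 and 0 counts in wild type. Ihh had 3, 6 and 4 counts in the labelled MLL4 knockdown, 0, 0 and 0 counts in the UTX knockout, and 3, 6 and 0 counts in wild type, and neither gene was tested. Dhh, the third ligand, had 21 to 34 counts in the labelled MLL4 knockdown, 43 to 50 counts in the UTX knockout and 25 to 39 counts in wild type, and did not pass in any comparison. Of genes of ligands and their release, 6 were tested. In the labelled MLL4 knockdown 2 fell and 0 rose against wild type, or 33.3% beside 26.6% of all tested genes. The 2 that fell were Scube2 and Scube3, secreted proteins of the family that helps release lipid-bearing ligand. Scube3 had 13.4, 8.96 and 9.70 CPM in the labelled MLL4 knockdown, against 45.5, 29.9 and 37.8 CPM in wild type (log2 −1.82, SE 0.19, edgeR adjusted p = 7.45e-05). Disp2, a relative of the ligand exporter Dispatched, fell in the UTX knockout by 1.61 (SE 0.40, edgeR adjusted p = 0.0200), at 4 to 9 counts per library against 19 to 22 counts in wild type. That call was lost without UTX knockout replicate 2 (adjusted p = 0.0948) or 3 (adjusted p = 0.0720).

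Of 9 tested receptor and co-receptor genes, 4 fell and 1 rose in the labelled MLL4 knockdown, or 55.6% beside 26.6% of all tested genes. In the UTX knockout 0 rose and 1 fell, or 11.1% beside 15.5% (1 and 1 with the replicate number as a block, which added Gpc6). Cdon, which binds ligand and promotes signalling, had 22.4, 23.5 and 21.8 CPM in the labelled MLL4 knockdown, against 50.7, 34.0 and 49.7 CPM in wild type (log2 −0.99, SE 0.16, edgeR adjusted p = 0.00146). Its relative Boc averaged 2.06 ± 0.136 CPM in the labelled MLL4 knockdown and 4.01 ± 0.751 CPM in wild type (log2 −0.96, SE 0.23, edgeR adjusted p = 0.00996). Gpc3, a glypican that competes for ligand and so restrains the pathway, averaged 50.6 ± 5.53 CPM in the labelled MLL4 knockdown and 98.4 ± 28.8 CPM in wild type (log2 −0.96, SE 0.18, edgeR adjusted p = 0.00265). Lrp2, a large endocytic receptor that takes up Shh, fell in both perturbed groups, by 2.42 (SE 0.41, edgeR adjusted p = 0.00165) in the labelled MLL4 knockdown and by 1.50 (SE 0.39, edgeR adjusted p = 0.0263) in the UTX knockout. Lrp2 had 51.5, 21.5 and 19.5 CPM in the labelled MLL4 knockdown, 69.0, 54.8 and 49.7 CPM in the UTX knockout, and 236.6, 84.4 and 171 CPM in wild type. Its 16701 exon bases place it among the long genes that were low in wild type replicate 2, and without that library its difference was −1.82 in the UTX knockout. The call in the UTX knockout was lost when wild type replicate 1 or 3 or UTX knockout replicate 2 or 3 was left out (edgeR adjusted p between 0.0584 and 0.101). Cdon, Boc and Gpc3 also fell against the UTX knockout, by 1.35, 1.25 and 1.06. The difference of Lrp2 there was −0.91 (edgeR adjusted p = 0.105), and it passed with the replicate number as a block (edgeR adjusted p = 0.00582). Gpc6, another glypican, was the gene that rose (log2 0.54, edgeR adjusted p = 0.0385).

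Between Smo and the GLI factors 32 genes were tested. In the labelled MLL4 knockdown 5 rose and 2 fell, or 21.9% beside 26.6% of all tested genes. In the UTX knockout 2 rose and 2 fell, or 12.5% beside 15.5%. The UTX knockout count was 4 and 2 with the replicate number as a block, which added Csnk1e and Gnas, and 0 and 2 without UTX knockout replicate 2. The 2 that fell in the labelled MLL4 knockdown were adenylyl cyclases, which feed protein kinase A, the kinase that marks GLI proteins for processing. Adcy5 had 0.915, 1.09 and 1.06 CPM in the labelled MLL4 knockdown, against 4.93, 3.62 and 4.34 CPM in wild type (log2 −2.07, SE 0.23, edgeR adjusted p = 0.000132). Adcy6 averaged 6.83 ± 0.189 CPM in the labelled MLL4 knockdown and 11.5 ± 1.85 CPM in wild type (log2 −0.75, SE 0.16, edgeR adjusted p = 0.00675). Prkar1a, the regulatory subunit that holds protein kinase A inactive, rose by 0.49 (edgeR adjusted p = 0.00751), and Spopl, a relative of the GLI ubiquitin ligase adaptor Spop, rose by 0.56 (edgeR adjusted p = 0.00829). Cul1, the scaffold of the ligase that acts on phosphorylated GLI, had 251, 205 and 201 CPM in the labelled MLL4 knockdown, 113, 103 and 93.4 CPM in the UTX knockout, and 162, 155 and 152 CPM in wild type. It rose in the labelled MLL4 knockdown by 0.49 (edgeR adjusted p = 0.0112) and fell in the UTX knockout by 0.60 (edgeR adjusted p = 0.00768), the same order of groups as Smo. Efcab7, part of a complex at the base of the cilium that works with Smo, fell in the UTX knockout to 4.78 ± 0.489 CPM, against 9.15 ± 0.387 CPM in wild type (log2 −0.94, SE 0.17, edgeR adjusted p = 0.00489). Tulp3, which brings a pathway inhibitor into the cilium, rose there by 0.49 (edgeR adjusted p = 0.00921), but not without UTX knockout replicate 2 (adjusted p = 0.0533).

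Of 35 tested cilium genes, 7 rose and 1 fell in the labelled MLL4 knockdown, or 22.9% beside 26.6% of all tested genes. In the UTX knockout 5 rose and 1 fell, or 17.1% beside 15.5%. With the replicate number as a block these counts were 10 and 1 in the labelled MLL4 knockdown and 9 and 2 in the UTX knockout. They depended on single libraries: in the labelled MLL4 knockdown 1 rose and 1 fell without its replicate 2, and 2 rose and 1 fell without its replicate 3. In the UTX knockout 1 rose and 0 fell without its replicate 2 or 3, and 9 rose and 1 fell without wild type replicate 1. Tmem231, part of the gate at the cilium base, was the gene that fell in the labelled MLL4 knockdown, to 36.1 ± 0.256 CPM, against 65.5 ± 6.53 CPM in wild type (log2 −0.86, SE 0.11, edgeR adjusted p = 0.000403). Dync2h1, the motor of retrograde transport in the cilium, rose to 34.6 ± 1.49 CPM, against 18.7 ± 5.62 CPM in wild type (log2 0.89, SE 0.20, edgeR adjusted p = 0.00692). It is also long, with 16348 exon bases, and the rise was 0.66 without wild type replicate 2. In the UTX knockout Ift122, a subunit of the retrograde transport complex, rose by 0.51 (edgeR adjusted p = 0.0132). The others that rose were Ift52, Wdr19, Talpid3 and C2cd3, and all 4 lost their calls without UTX knockout replicate 2 or 3, with an adjusted p for Ift52 of 0.125 and 0.0694 and for Talpid3 of 0.118 and 0.0993 in these fits. Rpgrip1l, a gate protein, fell by 0.61 (edgeR adjusted p = 0.0241). Rpgrip1l lost its call when wild type replicate 3, UTX knockout replicate 2 or UTX knockout replicate 3 was left out (adjusted p between 0.0759 and 0.0909).

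Of genes that answer to Hedgehog signalling in other tissues, 19 were tested. In the labelled MLL4 knockdown 8 rose and 0 fell, or 42.1% beside 26.6% of all tested genes. In the UTX knockout 3 rose and 2 fell, or 26.3% beside 15.5%. The UTX knockout count was 1 and 0 without its replicate 2 or 3, and 2 and 1 without wild type replicate 2. Olig2, a factor of ventral neural progenitors, had 88.9, 107 and 120.0 CPM in the labelled MLL4 knockdown, 37.4, 24.4 and 34.5 CPM in the UTX knockout, and 13.0, 21.6 and 27.0 CPM in wild type. It rose by 2.35 (SE 0.25, edgeR adjusted p = 9.44e-05) in the labelled MLL4 knockdown. The UTX knockout difference of 0.64 did not pass (edgeR adjusted p = 0.0954), and it passed with the replicate number as a block (edgeR adjusted p = 0.0378). The 11 neural progenitor markers in the table, Olig2 included, summed to 155 to 174 CPM in the labelled MLL4 knockdown, 73.5 to 92.5 CPM in the UTX knockout and 153 to 188 CPM in wild type. Without Olig2 the other 10 summed to 53.7 to 65.6 CPM in the labelled MLL4 knockdown, 49.1 to 58.0 CPM in the UTX knockout and 132 to 175 CPM in wild type. Of 5 of the 11 tested, 1 rose (Olig2) and 2 fell (Nes and Tubb3) in the labelled MLL4 knockdown, or 60% beside 26.6% of all tested genes. In the UTX knockout 0 neural progenitor markers rose and 3 fell, or 60% beside 15.5%. Nes, an intermediate filament of neural progenitors, averaged 6.64 ± 1.47 CPM in the labelled MLL4 knockdown and 60.5 ± 17.7 CPM in wild type. The part of these markers in the Olig2 result was not tested. Ntn1, the floor plate guidance cue netrin, averaged 229 ± 56.5 CPM in the labelled MLL4 knockdown, 116 ± 13.5 CPM in the UTX knockout and 45.8 ± 19.6 CPM in wild type. It rose against wild type by 2.32 (SE 0.29, edgeR adjusted p = 0.000271) and by 1.34 (SE 0.28, edgeR adjusted p = 0.0102). Its groups lay in the same order as those of Gli2. Sfrp1, a secreted Wnt antagonist, rose in the labelled MLL4 knockdown by 1.12 (edgeR adjusted p = 0.000908). Ccnd1, cyclin D1, had 159, 156 and 153 CPM in the labelled MLL4 knockdown, 73.0, 51.2 and 61.9 CPM in the UTX knockout, and 95.3, 84.3 and 111 CPM in wild type. It rose in the labelled MLL4 knockdown by 0.69 (edgeR adjusted p = 0.00499) and fell in the UTX knockout by 0.64 (edgeR adjusted p = 0.0129). The fall in the UTX knockout was lost without UTX knockout replicate 2 (adjusted p = 0.0623) or 3 (adjusted p = 0.0592). Grem1, a BMP antagonist, had 21, 26 and 23 counts in the labelled MLL4 knockdown, 6, 2 and 3 counts in the UTX knockout, and 1, 2 and 0 counts in wild type. The remaining genes that rose in the labelled MLL4 knockdown were Foxd1, Prdm1 and Spp1, whereas the targets Ptch1 and Hhip showed no difference beyond their spread.

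Of the zinc finger relatives of the GLI genes, 7 were tested. In the labelled MLL4 knockdown 2 rose and 0 fell, or 28.6% beside 26.6% of all tested genes. With UTX knocked out 0 rose and 3 fell, or 42.9% beside 15.5%. The labelled MLL4 knockdown count was 3 and 0 with the replicate number as a block, which added Zic5, and 1 and 0 without wild type replicate 2 or any 1 labelled MLL4 knockdown replicate. The UTX knockout count was 0 and 1 without its replicate 2 or 3. Zic2 and Zic5, factors of early neural development, were among those that fell. Zic2 had 43.7, 40.1 and 43.1 CPM in the labelled MLL4 knockdown, 20.5, 15.2 and 21.8 CPM in the UTX knockout, and 42.8, 27.6 and 38.1 CPM in wild type. It fell in the UTX knockout by 0.92 (SE 0.18, edgeR adjusted p = 0.00739) and kept this call under every alternative run. Zic5 fell by 0.82 (edgeR adjusted p = 0.0262), a call lost without UTX knockout replicate 2 (adjusted p = 0.116) or 3 (adjusted p = 0.110) or wild type replicate 1 (adjusted p = 0.0658). Glis2, a GLI-like factor of kidney, rose in the labelled MLL4 knockdown by 0.54 (edgeR adjusted p = 0.0122). In the labelled MLL4 knockdown against the UTX knockout Glis2 rose by 0.93, Zic2 by 1.14 and Zic5 by 1.17.

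**Figure D4:**
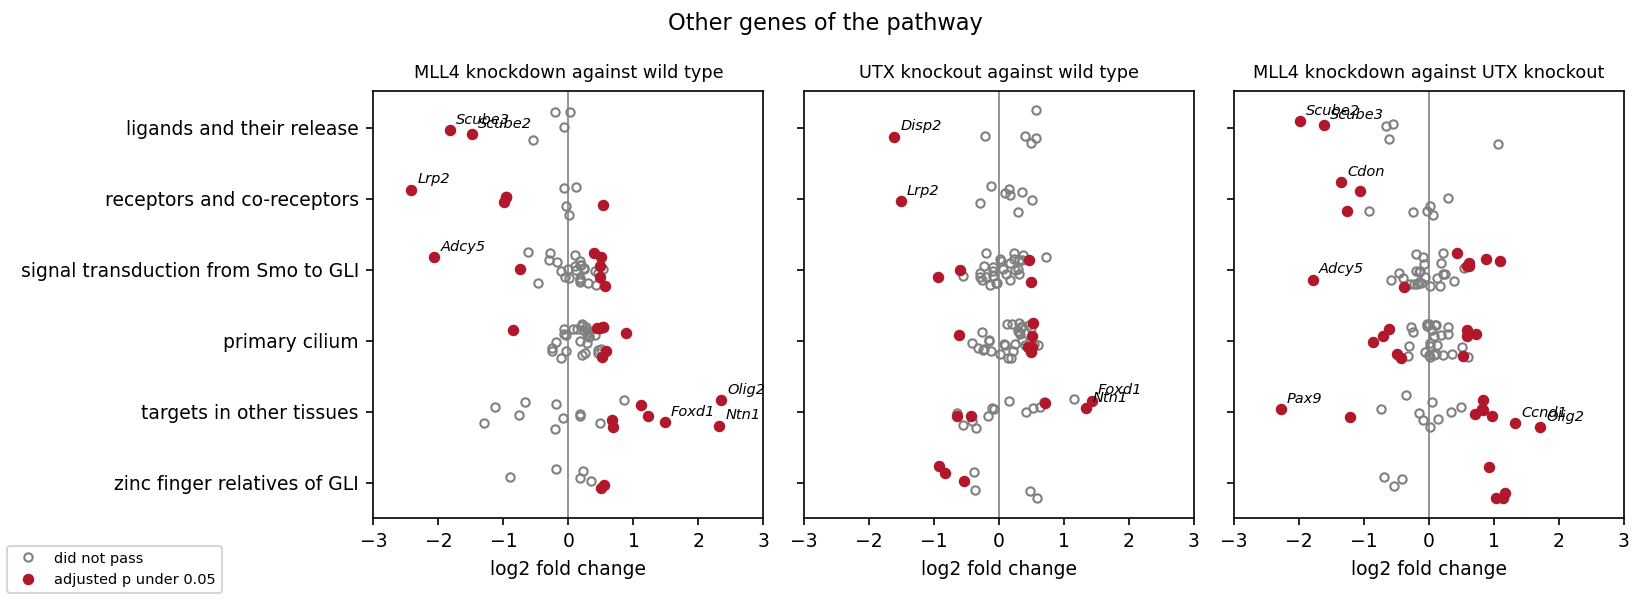
Log2 fold change of the other pathway genes by list in 3 comparisons, with 1 circle per tested gene; filled circles passed at an adjusted p under 0.05, names mark wide differences that passed, height within a list is jitter, and Grem1 is left out because wild type had 3 counts in all. In the left panel the filled circles of receptors and co-receptors lie left of 0 except for 1, and those of the targets in other tissues lie right of 0.

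On chromosome 1, the nearest tested protein-coding genes on both sides of Gli2 are Tfcp2l1, a pluripotency factor that the table lists as Tcfcp2l1, and Inhbb, which encodes an activin subunit. Tfcp2l1 had 853, 986 and 833 CPM in the labelled MLL4 knockdown, 537, 728 and 630.2 CPM in the UTX knockout, and 162, 206 and 352 CPM in wild type. It rose by 1.89 (SE 0.24, edgeR adjusted p = 0.000327) in the labelled MLL4 knockdown and by 1.40 (SE 0.24, edgeR adjusted p = 0.00417) in the UTX knockout. Inhbb had 47.9, 54.0 and 51.3 CPM in the labelled MLL4 knockdown, 43.0, 24.1 and 29.5 CPM in the UTX knockout, and 7.43, 26.5 and 28.9 CPM in wild type. It rose by 1.28 (SE 0.38, edgeR adjusted p = 0.0288) in the labelled MLL4 knockdown, a call lost without any 1 of the labelled MLL4 knockdown replicates (adjusted p between 0.0550 and 0.0812), and did not pass in the UTX knockout (log2 0.62, edgeR adjusted p = 0.298). Gli2 and both neighbours had their group means in the same order. Between the labelled MLL4 knockdown and the UTX knockout, Tfcp2l1 differed by 0.50 (SE 0.23, edgeR adjusted p = 0.134) and Inhbb by 0.67 (SE 0.37, edgeR adjusted p = 0.205), and neither passed. Around the other 6 genes, 2 of 12 neighbours passed against wild type, Anapc10 in both comparisons and AW209491 in the UTX knockout alone. Of all tested genes, 26.6% passed in the labelled MLL4 knockdown and 15.5% in the UTX knockout against wild type. Anapc10 beside Hhip, a subunit of the anaphase-promoting complex, fell in the labelled MLL4 knockdown by 0.91 (edgeR adjusted p = 0.0103) and in the UTX knockout by 0.89 (edgeR adjusted p = 0.0189), the second call being lost without wild type replicate 2 or 3 or UTX knockout replicate 2 (adjusted p between 0.0544 and 0.0841). AW209491 beside Gli3 fell in the UTX knockout by 0.47 (edgeR adjusted p = 0.0336), a call lost without wild type replicate 1 or 2 or UTX knockout replicate 2 or 3 (adjusted p between 0.0532 and 0.137).

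The genes whose log2 CPM followed Gli2 most closely over the 9 libraries, among 9864 candidates, were Zeb1, Tmem127, Sall3, Grb10 and Trps1, with a Pearson r of 0.995, 0.986, 0.983, 0.981 and 0.98. The points share library and depth, and much of r comes from the order of the 3 groups. After the group means were taken out, r was 0.958 for Zeb1, 0.767 for Tmem127, 0.527 for Sall3, 0.481 for Grb10 and 0.707 for Trps1. Zeb1, a zinc finger repressor of epithelial genes, averaged 34.9 ± 0.907 CPM in the labelled MLL4 knockdown, 20.9 ± 1.25 CPM in the UTX knockout and 17.0 ± 2.38 CPM in wild type. Sall3, a spalt family factor, averaged 24.5 ± 1.39 CPM in the labelled MLL4 knockdown, 7.25 ± 0.961 CPM in the UTX knockout and 3.87 ± 0.897 CPM in wild type. The closest genes were Arfgap2 (r 0.983) and Sfmbt1 (r 0.982) for Smo, Txlna (r 0.99) and Dhx33 (r 0.987) for Sufu, and Vamp2 (r 0.964) and Hnrnpul2 (r 0.956) for Gli1. For Ptch1 they were Pikfyve (r 0.98) and Pcnx (r 0.979), and Pikfyve averaged 80.8 ± 1.60 CPM in the labelled MLL4 knockdown, 93.7 ± 4.42 CPM in the UTX knockout and 61.2 ± 31.9 CPM in wild type, a wide wild type spread like that of Ptch1. For Gli3 they were Ptpn12 (r 0.964) and Usp12 (r 0.96), and for Hhip they were Rbpj (r 0.902) and Rai14 (r 0.887).

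**Figure D5:**
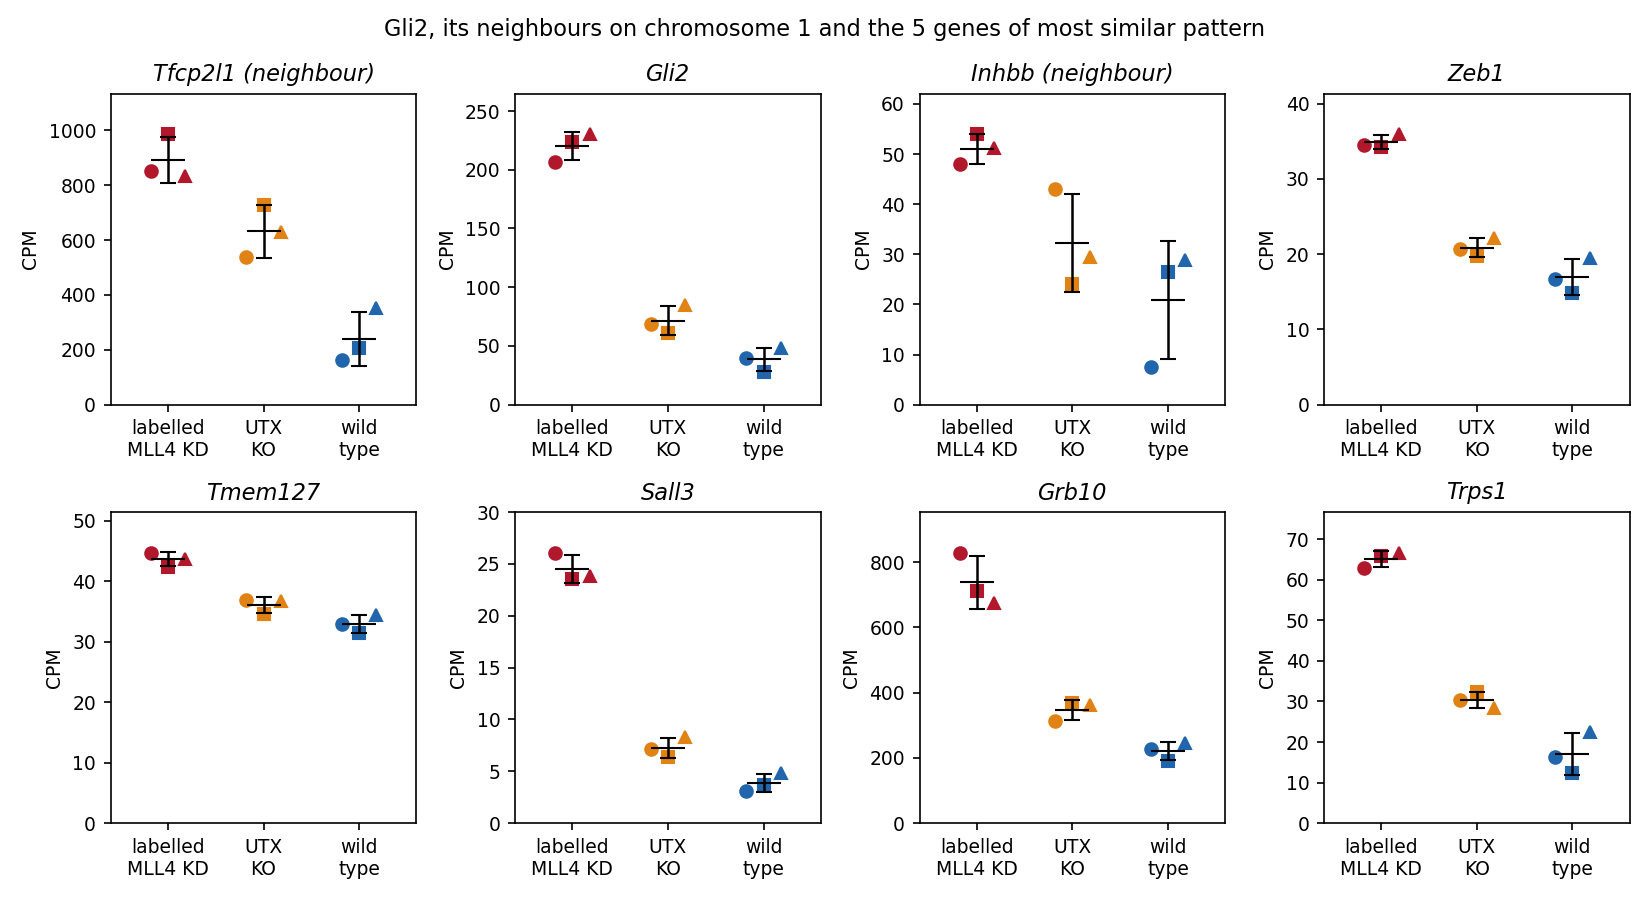
Level in CPM, on linear axes from 0, of Gli2 between its neighbours Tfcp2l1 and Inhbb and of the 5 genes with the most similar pattern, per library with mean and SD (circles, squares and triangles are replicates 1, 2 and 3). For Gli2, Zeb1, Sall3, Grb10 and Trps1 the labelled MLL4 knockdown stands above both other groups, while for Tfcp2l1 the wide gap is between wild type (240.1 CPM on average) and the UTX knockout (632 CPM).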

How the data were processed

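Libraries were made from total RNA with a TruSeq RNA kit, per the labels' protocols. The authors deposited raw counts of reads per gene symbol, 1 column per library. Per the submitters' processing notes the tools were STAR 2.4 and HTSeq 0.6.1, and mm9 stands beside hg19 as build, with no roles. Annotation and strand setting were not found there. Titles matched all columns to libraries, and 0 columns were unused.

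Tests on the deposited counts used edgeR 4.0.16 under R 4.3.3 (filterByExpr by group, minimum count 10, TMM, quasi-likelihood F test, group term only, all 9 libraries, two-sided, Benjamini-Hochberg over all 14772 tested genes, threshold 0.05). An exact permutation test of 3 against 3 libraries cannot go below 0.1, so none is given. CPM were counts divided by TMM-scaled totals, and SE came from the fitted contrast. RPKM used GENCODE M21 exon lengths. Replicate pairs differed by more than sampling noise, with a chi-square of 6.57 to 60.7 per degree of freedom. Intervals are at 95%. Same-numbered libraries deviated together in 9 of 9 pairs (r 0.168 to 0.467), in these data. For libraries of different number r lay between −0.412 and 0.226, which overlaps that range. Because of the shared deviation, the fit with replicate number as a block is given beside several of the differences and counts in the report that it changed. The other calls it added to the pathway lists are named with the alternatives.

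The 7 genes, the lists and the tests were chosen with earlier results of these data known. Genes named were the 7; up to 4 of smallest p among those that passed, per list and comparison; the nearest tested neighbours; the genes most correlated with each member (mean log2 CPM of at least 2); and the targeted genes. Others named (Shh, Ihh, Dhh, Gpc6, Csnk1e, Gnas, marker genes, Sfrp1, Prdm1, Foxd1, Spp1 and genes completing small counts) were chosen after their values were seen. The older symbols of the table were matched through the gene name table, and Disp1, Mosmo and Sox1 had no row. A few genes of the lists are counted but not reported here by name. Alternatives were RLE factors, DESeq2 1.42.0, other filters, the block, lane 2 only, fewer groups, single libraries left out and, added after seeing the data, removal of a transcript length trend. Tests were tried on simulated counts.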

Additional observations from a re-analysis of the deposited data

How the results depend on the processing

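Across the alternatives the difference of Gli2 lay between 2.32 and 2.70 on the log2 scale for the labelled MLL4 knockdown against wild type, between 0.71 and 1.08 for the UTX knockout against wild type, and between 1.51 and 1.76 for the labelled MLL4 knockdown against the UTX knockout. Genes called in the UTX knockout against wild type numbered 2285, and 3446 with the replicate block, 1240 when only the 2 groups were fitted, 74 in lane 2 alone, 4083 with the transcript length trend removed and the replicate block, and 833 to 2854 with 1 library left out. For the labelled MLL4 knockdown against wild type 3930 genes were called, 1341 in lane 2 alone and 2273 to 4108 with 1 library left out. Against the UTX knockout these were 4275, 1535 and 2556 to 4062. Pathway genes called were 20, 32 and 36 in the UTX knockout against wild type, the labelled MLL4 knockdown against wild type and the labelled MLL4 knockdown against the UTX knockout. In lane 2 alone they were 1, 15 and 19, and with the replicate block 29, 38 and 43. In the UTX knockout against wild type they were 8 when only the 2 groups were fitted and 35 with the length trend removed and the replicate block. With 1 library left out they were 5 to 22, 22 to 36 and 25 to 35. In the labelled MLL4 knockdown against the UTX knockout, fitting only the 2 groups gave more calls, 5871 over all genes and 51 in the pathway. Lane 2 alone leaves fewer libraries in the fit; for the others the cause was not tested. The replicate block ended 0 calls of pathway genes. In the UTX knockout against wild type it added 9 (Gpc6, Csnk1e, Gnas, Ift57, Ift80, Arl13b, Tctn1, Ofd1 and Olig2, edgeR adjusted p between 0.0161 and 0.0497). It added 6 in the labelled MLL4 knockdown against wild type (Btrc, Ttc21b, Kif3b, Ttbk2, Mycn and Zic5, edgeR adjusted p between 0.0179 and 0.0462). Against the UTX knockout it added 7 (Disp2, Lrp2, Stk36, Csnk1e, Adcy6, Spp1 and Glis3, edgeR adjusted p between 0.00582 and 0.0447). The labelled MLL4 knockdown difference of Kmt2d, −0.20, was 0.16 without wild type replicate 3 and −0.51 without wild type replicate 2. The sign turned in 6 of 15 alternatives for Gli3, 1 for Ptch1 and 1 for Hhip in the labelled MLL4 knockdown against wild type, and in 2 for Hhip in each other comparison. Depth limits the scarce genes: Shh and Ihh had too few counts to be tested, and Hhip had 31 counts per labelled MLL4 knockdown library.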
